A study of Mus musculus with 6 samples.

Results

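Long noncoding RNAs (lncRNAs) that act in the nucleus or carry small nucleolar RNAs (snoRNAs) in their transcripts were followed in mouse hepatocytes before and after partial hepatectomy (PHx): Neat1, Malat1, Gas5, Snhg1, Snhg3, Snhg12 and Kcnq1ot1. They were chosen by name, and all 7 were found by versioned Ensembl identifier and GENCODE M21 gene name among the 55450 genes of the count files. In PHx most of the liver mass is cut away, and the hepatocytes that remain enter the cell cycle. Bulk RNA-Seq libraries were made from hepatocytes of 3 preparations at 0 h and 3 preparations at 48 h. The mice were males of the strain C57BL/6 per the labels and C57BL/6J per the study's methods, were fed normal diet and were 10 to 12 weeks old at surgery per the labels, while the study's methods give a slightly younger age. The 0 h group came from undamaged liver and was not a sham operation, so the response to surgery itself cannot be told apart from the response to loss of liver mass. Hepatocytes were isolated in 2 collagenase perfusion steps, RNA was extracted with TRIzol, and the sources used here do not say whether poly(A) RNA was selected.

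Most members are known for where they reside or what they release. Neat1 is the scaffold of paraspeckles, nuclear bodies built on RNA-binding proteins, and Malat1 is an abundant RNA of nuclear speckles, where splicing factors gather. Gas5, Snhg1, Snhg3 and Snhg12 are spliced host transcripts whose introns hold snoRNAs, the guides that direct methylation or pseudouridylation of ribosomal RNA, and the spliced products are degraded by nonsense-mediated decay when translated. Kcnq1ot1 is transcribed from the paternal chromosome, antisense to Kcnq1, and silences neighbouring genes of that imprinted domain in cis. The hosts also belong to the genes whose transcripts start with a 5′ terminal oligopyrimidine (TOP) run, a feature they share with ribosomal protein genes.

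The starts of the 4 host genes are shown because they bear on that feature. Each line gives 20 bases before and 25 bases from the start annotated by RefSeq (GRCm38.p6), 5′ to 3′ on the gene's strand, and capitals mark a C followed by at least 4 C or T bases that begins within 10 bases of the start.
Gas5, start 1 (chr1:161034581-161034625, plus strand): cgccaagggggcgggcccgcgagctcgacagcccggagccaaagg
Gas5, start 2 (chr1:161035146-161035190, plus strand): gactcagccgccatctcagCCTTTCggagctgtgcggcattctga
Snhg1 (chr19:8723467-8723511, plus strand): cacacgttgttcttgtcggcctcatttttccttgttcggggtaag
Snhg3 (chr4:132353662-132353706, minus strand): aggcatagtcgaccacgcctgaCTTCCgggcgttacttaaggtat
Snhg12 (chr4:132308658-132308702, plus strand): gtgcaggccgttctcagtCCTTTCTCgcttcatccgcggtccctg

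A pyrimidine run of this kind was found at the start of Snhg3, Snhg12 and the second start of Gas5. It was not found by these letters at the first start of Gas5 or at the start of Snhg1, whose transcript begins with a stretch of T and C bases interrupted by an A. The RefSeq table held windows for 6 of the 7 members, and the entry for Neat1 was missing. Of all 32851 start windows in that table, 30.7% held the run. The share was 54.2% of 24 windows in the list of snoRNA host lncRNAs and 55.6% of 72 windows of cytosolic ribosomal protein genes. It was 52.9% of 17 windows of snoRNP protein genes, 47.8% of 46 windows of annotated noncoding snoRNA hosts and 33.8% of 219 windows of annotated protein-coding hosts. The E box CACGTG, a palindrome that reads the same on both strands, was present in 0 of the members' windows (250 bases before and 50 bases from the start), and 7.15% of all windows held it. These matches are letters in a window and were not tied to a factor.

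The snoRNAs inside the hosts are shown because the annotation places them under exons of other genes, which bears on how reads were counted. All lie wholly within exons of their host except Snora73a, of which 77.6% does, and Snora73b, of which 0% does, and the rest of both lies under exons of Gm17300 on the opposite strand. Sequences are those of the GENCODE M21 transcripts on GRCm38. Capitals mark box C (TGATGA) and box D (CTGA) in the first 3, which are C/D snoRNAs that guide methylation, and the ACA near the 3′ end in the last, an H/ACA snoRNA.
Snord47, in Gas5 (chr1:161038082-161038158, plus strand): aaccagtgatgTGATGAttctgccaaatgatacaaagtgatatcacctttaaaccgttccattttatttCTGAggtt
Gm25855, in Snhg1 (chr19:8723993-8724064, plus strand): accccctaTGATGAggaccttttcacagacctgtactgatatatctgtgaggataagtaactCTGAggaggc
Snord99, in Snhg12 (chr4:132310691-132310764, plus strand): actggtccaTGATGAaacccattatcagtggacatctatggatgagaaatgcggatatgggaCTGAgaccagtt
Snora73a, in Snhg3 (chr4:132352775-132352979, minus strand): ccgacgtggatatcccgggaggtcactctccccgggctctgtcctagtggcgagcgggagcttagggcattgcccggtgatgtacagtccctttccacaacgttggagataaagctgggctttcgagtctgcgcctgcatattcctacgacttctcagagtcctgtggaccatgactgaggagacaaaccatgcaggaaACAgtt

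Gas5 holds 10 annotated snoRNA genes, Snhg1 holds 8, Snhg12 holds 5 and Snhg3 holds 2. Snora73a and Snora73b, both in Snhg3, are 205 bases long and differ at 7 positions. Of the 25 snoRNA genes, 14 had both a box C and a box D in these exact letters and 5 had the ACA near the 3′ end. All 25 were listed at 0 counts in all 6 libraries. None of the 25 has an exon base outside the exons of another gene. Among all 1507 annotated snoRNA genes, 384 had counts, so the files do hold counts for other snoRNA genes. Production of the members' snoRNAs could therefore not be read from these files, and the values below are those of the host genes.

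The same limit bears on the value of Snhg3. Every one of the 460 genes whose exons lie wholly under exons of a gene on the opposite strand was at 0 in all 6 libraries, as was every one of the 712 genes wholly under exons on the same strand. Of 43557 genes that share no exon base, 47.9% were at 0. The counts thus behave as if strand was not used and reads on shared bases were dropped. Snhg3 has 986 exon bases, of which 71.5% lie in exons of Gm17300 on the opposite strand and 29.8% in exons on the same strand (135 bases in Rcc1, the rest in Snora73a). This leaves 135 free bases, or 13.7%. Cover of most bases did not always give 0. Of 133 genes with 90% to under 100% of exon bases under opposite-strand exons only, 77.4% were at 0, and totals reached 920 counts. Snhg3 was listed at 0 in all 6 libraries and was not tested. Its expression cannot be read from that, since low expression and dropped reads cannot be told apart. Gm17300 had 3 to 12 counts per library.

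The other hosts kept most of their exon bases. Free bases made up 82.2% for Gas5, 79.1% for Snhg1 and 80.4% for Snhg12. In Gas5, 20 of 25 annotated transcripts are of the retained-intron type, and 77.4% of exon bases belong to such transcripts only. In Snhg1, these values are 14 of 18 transcripts and 70.9%. The exon union of Snhg12, 2402 bases, covers its whole span. Counts on these genes therefore include intronic reads, and spliced and unspliced host RNA cannot be separated. Neat1 and Malat1 were free over 98.2% and 92.3% of their exon bases. The short and long forms of Neat1 were counted as a single gene. Kcnq1ot1 is a single annotated exon of 93092 bases, 98.8% free, and lies within the span of Kcnq1, mostly over intron sequence, with 0.13% of its bases under exons of that gene. Reads from unspliced Kcnq1 RNA therefore cannot be told apart from Kcnq1ot1 reads without strand.

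**Figure D1:**
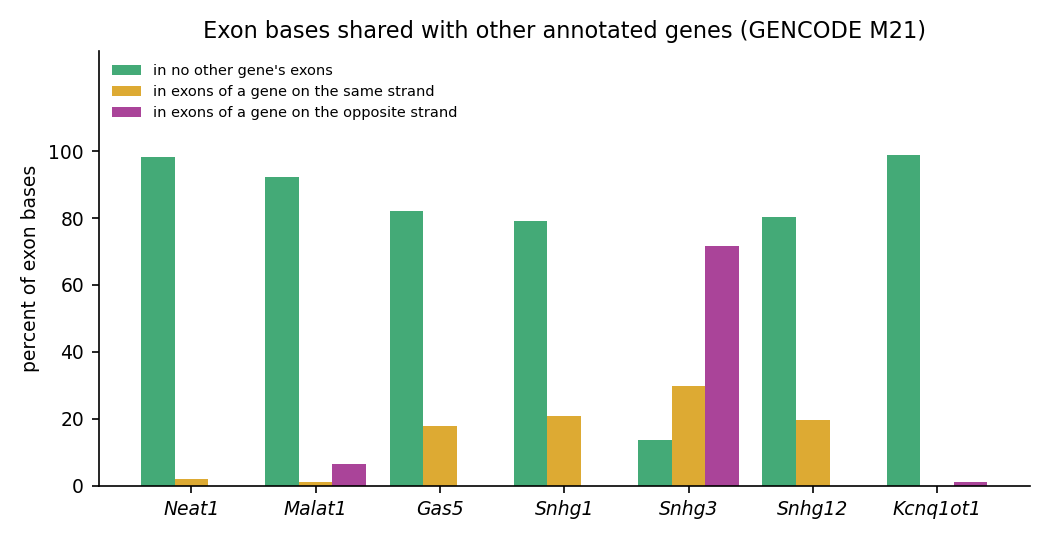
Percent of each member's exon bases (vertical axis) that lie in no other annotated gene's exons, in exons of a gene on the same strand, or in exons of a gene on the opposite strand (GENCODE M21). A base can lie under both strands, so bars of a gene may sum to over 100. Snhg3 stands apart with 13.7% free bases and 71.5% under the opposite strand.

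Libraries held 31419443 to 36346220 gene counts at 0 h and 31684152 to 33093006 at 48 h. Levels are given as counts scaled to a common library total (CPM) after trimmed mean of M values (TMM) scaling, and 3 counts, taken as the floor, equal 0.0825 to 0.0955 CPM. All 10 hepatocyte markers were detected and tested, with a summed level of 105368 to 124102 CPM at 0 h and 65795 to 76334 CPM at 48 h. Of these 10, 4 fell (Alb, Apoa1, Ttr and Cyp2e1) and 6 were not called. The 10 sinusoidal endothelial markers summed to 348 to 510 CPM at 0 h and 243 to 265 CPM at 48 h, and all 10 fell. Stellate cell markers summed to 123 to 188 CPM and 81.5 to 104 CPM, with 3 of 9 tested lower and 1 higher, and Kupffer cell markers to 78.3 to 118 CPM and 112 to 137 CPM, with 2 of 10 higher. Cholangiocyte markers summed to 9.38 to 20.8 CPM and 16.6 to 26.1 CPM, with 1 of 2 tested higher. Neutrophil and lymphocyte markers had too few counts to test, at most 1.06 CPM summed in any library, and Mpo, Ltf and Cd3d were at 0 throughout. In bulk samples, fewer cells of a type and less RNA per cell cannot be told apart, and the part of these other cells in the values below was not tested.

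Differences were tested with edgeR's quasi-likelihood test over 17037 genes (10 or more counts in 3 or more libraries), and a gene was called at a Benjamini-Hochberg adjusted p under 0.05. Of all tested genes, 21.4% were called higher at 48 h and 19.3% lower, or 40.7% in either direction. Of the called genes 52.5% were higher, and with library sizes alone as the scale, without TMM factors, 71.6% were. The 2 time points did not overlap for 52.7% of tested genes. Among the 6 members tested, Snhg1 and Kcnq1ot1 were higher at 48 h, Malat1 was lower, and Neat1, Gas5 and Snhg12 did not pass the test. That is 3 of 6 called, and 3 of 6 whose libraries did not overlap, near the shares of all tested genes. The median log2 fold change of the 6 was 0.19, against -0.00 over all tested genes and -0.29 over the 1887 tested lncRNA genes, of which 191 rose and 467 fell.

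**Figure D2:**
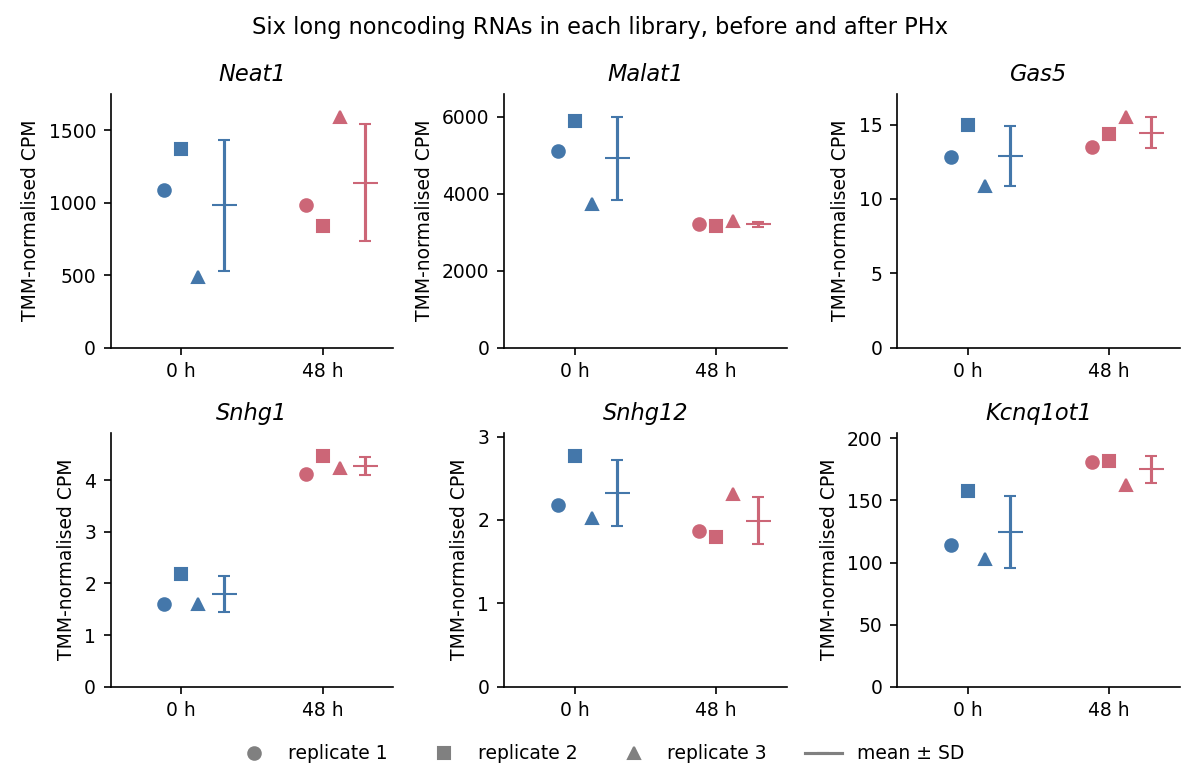
TMM-normalised CPM (vertical axes, each starting at 0) of 6 members in the libraries at 0 h and 48 h, with a symbol for each replicate and the mean ± SD (n = 3) beside them. Snhg1, Malat1 and Kcnq1ot1 show no overlap between the time points, while Neat1 at 0 h reaches from 489 to 1373 CPM.

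Malat1 (ENSMUSG00000092341.3, chr19:5795690-5802672, minus strand) had the highest level of the members, per length as well. Its level was 5110, 5893 and 3743 CPM in replicates 1, 2 and 3 at 0 h, and 3200, 3151 and 3280 CPM at 48 h. All 48 h libraries were below all 0 h libraries, and they lay close together, with a coefficient of variation of 2.03% against 22.1% at 0 h. Malat1 fell by 0.61 on the log2 scale (SE 0.187, adjusted p = 0.0236, edgeR), from a mean of 4916 ± 1088 CPM to 3211 ± 65.1 CPM (SD, n = 3). The call was lost with library sizes alone as the scale, where the log2 fold change was -0.42 (adjusted p = 0.109), and in 4 of the 6 fits that left out a library. Those were the fits without replicate 1 or 2 at 0 h (adjusted p = 0.0688 and 0.0680) and without replicate 2 or 3 at 48 h (adjusted p = 0.0791 and 0.0524). The log2 fold change was between -0.63 and -0.59 in 3 of these 4 fits and -0.47 without replicate 2 at 0 h.

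Neat1 (ENSMUSG00000092274.3, chr19:5824708-5845478, minus strand), its neighbour on the chromosome, varied far more within each time point. Its level was 1090, 1373 and 489 CPM at 0 h and 987, 837 and 1595 CPM at 48 h. The groups overlapped, and both the lowest and the highest library were those numbered 3. The log2 fold change was 0.21 (SE 0.344, 95% interval -0.55 to 0.97, adjusted p = 0.655, edgeR). Without replicate 3 at 0 h it was -0.12, and without replicate 3 at 48 h it was -0.11, so no direction can be given. The interval holds differences in either direction.

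The ratio of Neat1 to Malat1 counts within a library does not depend on how libraries are scaled. It was 0.213, 0.233 and 0.131 at 0 h and 0.308, 0.266 and 0.486 at 48 h. Every 48 h library was above every 0 h library. The mean was 0.192 ± 0.0544 at 0 h and 0.353 ± 0.117 at 48 h (SD, n = 3), and a two-sided exact permutation test gave p = 0.1, the smallest it can give with 3 libraries against 3. The permutation test can therefore not reach a p under 0.05 here, and the ratio does not tell which of the 2 RNAs differed.

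The share of reads that fell in no annotated exon moved with the levels of the tested members at 0 h. It was 29.3%, 32.7% and 25.1% of all counted reads in replicates 1, 2 and 3 at 0 h, and 24.3%, 26.7% and 27.9% at 48 h. Replicate 2 was highest and replicate 3 lowest at 0 h for this share and also for all 6 tested members, although Snhg1 in replicates 1 and 3 was at 1.60 CPM in both. At 48 h Neat1, Malat1, Gas5 and Snhg12 were highest in replicate 3, where the share was highest, and Gas5 had the same order as the share. Snhg1 was highest in replicate 2, and Kcnq1ot1 was lowest in replicate 3. How many of all tested genes follow the same orders was not counted. The part of this share of reads in the levels of these RNAs was not tested.

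**Figure D3:**
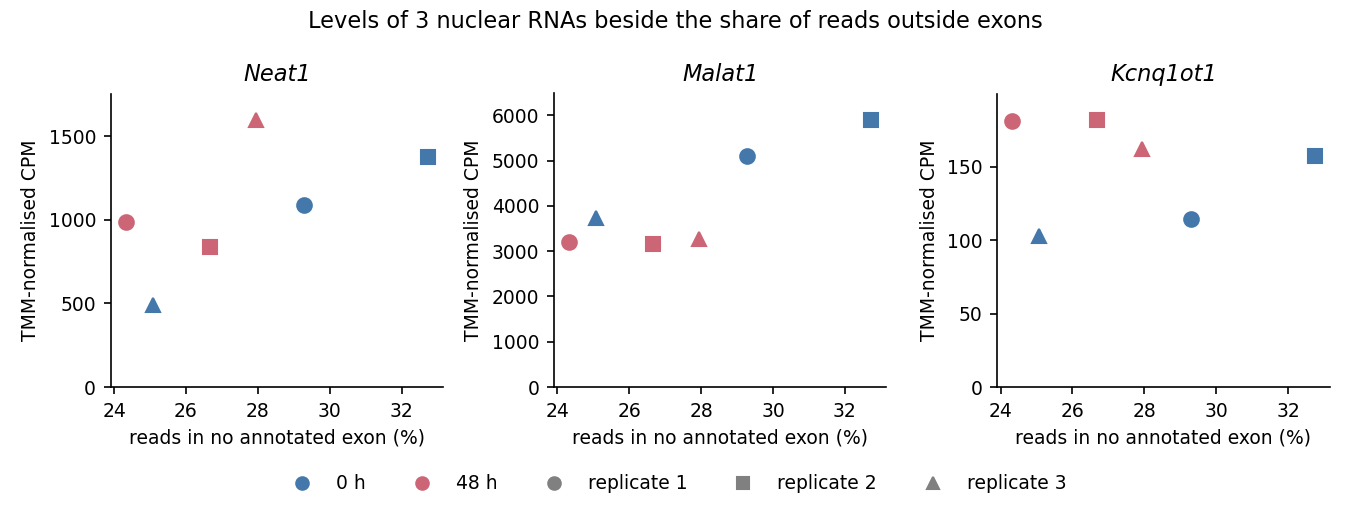
TMM-normalised CPM of Neat1, Malat1 and Kcnq1ot1 (vertical axes, starting at 0) against the percent of counted reads in no annotated exon (horizontal axis), with a colour for each time point and a symbol for each replicate. At 0 h, the 3 RNAs and the share all run from replicate 3 (25.1%) through replicate 1 (29.3%) to replicate 2 (32.7%).

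Kcnq1ot1 (ENSMUSG00000101609.2, chr7:143203458-143296549, minus strand) was present at 114, 157 and 103 CPM at 0 h and at 181, 182 and 162 CPM at 48 h. The groups did not overlap, although the highest 0 h library and the lowest 48 h library were close. The mean was 125 ± 28.7 CPM at 0 h and 175 ± 11.05 CPM at 48 h (SD, n = 3), a log2 fold change of 0.49 (SE 0.158, adjusted p = 0.0306, edgeR). The call was lost with upper quartile factors (0.40, adjusted p = 0.0834) and with TMM factors from protein-coding genes (0.43, adjusted p = 0.0605). It was also lost without replicate 1 or 3 at 0 h (adjusted p = 0.112 and 0.125) and without replicate 1 or 2 at 48 h (adjusted p = 0.0764 and 0.0954). The log2 fold change stayed above 0 in these fits, between 0.36 and 0.46. The 2 scalings shifted the median of all genes by -0.08 and -0.05. A change of scale moves every gene nearly alike, so these fits cannot tell which scale is right.

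Snhg1 (ENSMUSG00000108414.1, chr19:8723475-8726443, plus strand) had the largest difference among the members. It was counted at 1.60, 2.19 and 1.60 CPM at 0 h, from 47, 68 and 53 reads. At 48 h it stood at 4.13, 4.47 and 4.23 CPM, from 139, 160 and 148 reads. All 48 h libraries were well above all 0 h libraries. Snhg1 rose by a log2 fold change of 1.25 (SE 0.201, adjusted p = 0.000712, edgeR), or 2.38-fold, and kept its call in all 15 alternative fits, with an adjusted p of at most 0.00484.

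Gas5 (ENSMUSG00000053332.13, chr1:161034422-161038539, plus strand) showed 12.8, 15.0 and 10.9 CPM at 0 h and 13.5, 14.4 and 15.5 CPM at 48 h. The groups overlapped. The log2 fold change was 0.17 (SE 0.141, 95% interval -0.15 to 0.48, adjusted p = 0.375, edgeR). Gas5 takes its name from growth arrest, in which its transcript builds up in cultured cells. The interval here holds differences in either direction and applies to the TMM scale.

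Snhg12 (ENSMUSG00000086290.9, chr4:132308623-132311024, plus strand) was at 2.18, 2.77 and 2.02 CPM at 0 h and at 1.87, 1.79 and 2.31 CPM at 48 h. The groups overlapped here too, and the counts behind these values were 63 to 86 reads per library. The log2 fold change was -0.22 (SE 0.222, 95% interval -0.71 to 0.27, adjusted p = 0.460, edgeR). The interval of Snhg1, 0.80 to 1.70, lay wholly above those of Gas5 and Snhg12, but the difference between the hosts was not tested.

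**Figure D4:**
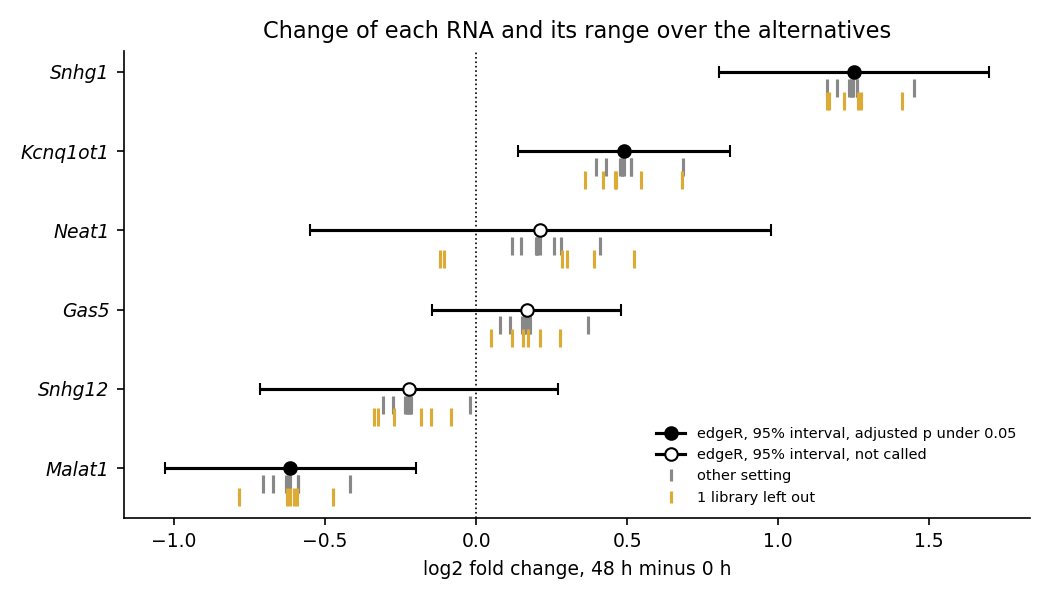
Log2 fold change of 6 members, 48 h minus 0 h (horizontal axis), with its 95% interval from edgeR. Filled points passed an adjusted p of 0.05, and ticks under each point give the values in other settings and with 1 library left out. Snhg1 stays between 1.16 and 1.45, and Neat1 is on either side of 0.

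Levels of the members were compared with each other per length, as TPM, in which counts were divided by the length of the union of exons before scaling each library to the same total. At 0 h the order was Malat1 (1354 to 2251 TPM), Neat1 (59.4 to 176 TPM), Gas5 (7.30 to 10.6 TPM), Kcnq1ot1 (2.79 to 4.51 TPM), Snhg12 (2.12 to 3.08 TPM) and Snhg1 (1.36 to 1.97 TPM). Kcnq1ot1 and Snhg12 overlapped in this order, and the other neighbours did not. At 48 h Snhg1 (4.14 to 4.71 TPM) stood above Snhg12 (2.32 to 3.11 TPM), below Kcnq1ot1 (5.62 to 6.10 TPM) and below Gas5 (10.7 to 13.3 TPM), with no overlap. Since reads on shared bases were dropped, the length was also counted over free bases alone, an alternative chosen after seeing the data. Snhg1 then reached 5.23 to 5.96 TPM at 48 h and overlapped with Kcnq1ot1 at 5.69 to 6.17 TPM, so these 2 cannot be ordered. By mean TPM over all 6 libraries, Malat1 ranked 2 among the tested lncRNA genes, Neat1 9, Gas5 161, Kcnq1ot1 447, Snhg1 677 and Snhg12 791. Per-length values of Kcnq1ot1 spread its reads over 93092 bases and the exon unions of Gas5, Snhg1 and Snhg12 include intron sequence, so the order holds for this annotation.

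The protein-coding genes described beside the members gave no common direction. Frmd8, 4224 bases from Neat1, rose from 14.6 ± 2.56 to 20.3 ± 2.54 CPM (log2 fold change 0.48, adjusted p = 0.0268). Near Gas5, Serpinc1, which encodes antithrombin, fell by 0.88 on the log2 scale (adjusted p = 0.000569). Slc3a2, which lies 106 bases from Snhg1 and encodes the heavy chain of amino acid transporters, had a log2 fold change of -0.23 (adjusted p = 0.0702). Wdr74, on the far side of Snhg1, had one of 0.35 (adjusted p = 0.0732). Rcc1, a chromatin-bound exchange factor for the GTPase Ran that shares exon bases with Snhg3, rose from 5.44 ± 0.588 to 13.1 ± 0.982 CPM (1.26, adjusted p = 6.96e-05). Near Snhg3 and Snhg12, Phactr4 (0.23, adjusted p = 0.148) and Trnau1ap (0.09, adjusted p = 0.632) did not pass the test, and Rab42 was too low to test. All adjusted p-values here are from edgeR.

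Kcnq1, the potassium channel gene that Kcnq1ot1 runs antisense to, was low at 0.885, 1.48 and 1.96 CPM at 0 h and 0.683, 0.615 and 0.514 CPM at 48 h. It fell by 1.26 on the log2 scale (SE 0.332, adjusted p = 0.0121, edgeR), from 26 to 65 reads per library at 0 h and 18 to 23 at 48 h. Of 18 genes listed for this imprinted domain, 12 were tested, 5 rose (41.7%) and 3 fell (25%), with a median log2 fold change of 0.10, beside 21.4% and 19.3% of all tested genes. Kcnq1ot1 is itself among the 5, and the increases numbered 3 without replicate 1 at 0 h or without replicate 1 at 48 h. Phlda2, a placental growth regulator, rose from 0.333 ± 0.0654 to 1.82 ± 0.621 CPM (log2 fold change 2.44, adjusted p = 0.000302), and Tssc4 rose by 0.69 (adjusted p = 0.00324). Slc22a18, a membrane transporter, fell by 0.86 (adjusted p = 0.000236) and Cd81, a tetraspanin, by 0.66 (adjusted p = 0.000938). Dhcr7, an enzyme of cholesterol synthesis, had the highest mean CPM and a log2 fold change of 0.04 (adjusted p = 0.909). Cdkn1c and Trpm5, the protein-coding genes on either side of Kcnq1ot1 and Kcnq1, had 5 to 17 reads per library and were not tested. Bulk counts do not separate the parental alleles.

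Of the 22 snoRNA host lncRNAs listed, members included, 19 were tested, 7 rose (36.8%) and 5 fell (26.3%), with a median log2 fold change of 0.27, where 21.4% and 19.3% of all tested genes and 10.1% and 24.7% of lncRNA genes did. The list was drawn up by name, and Snhg10, Snhg20, Mir22hg and Meg3 hold no annotated snoRNA gene in this release. Of the 5 decreases, 3 are among those 4. Snhg5 rose most among those with a mean of at least 1 CPM, from 1.82 ± 0.175 to 5.34 ± 1.05 CPM (log2 fold change 1.55, adjusted p = 0.000236), and Snhg15 rose by 0.88 (adjusted p = 0.0307). Snhg11, which the annotation types as protein-coding, fell by 2.08 on the log2 scale (adjusted p = 4.35e-05). Mir22hg, the host of miR-22, fell by 1.48 (adjusted p = 4.21e-05), and Meg3, an imprinted lncRNA, fell by 1.12 (adjusted p = 0.0156). Snhg17, with the highest mean CPM (which takes no account of length), had a log2 fold change of -0.01 (adjusted p = 0.948). The count of increases was 3 to 5 with 1 library left out and 3 with upper quartile factors. It was 3 without replicate 1 at 0 h and without replicate 1 or 2 at 48 h.

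A second list took hosts from the annotation itself, as genes whose span holds a snoRNA gene on the same strand. It shares genes with the first list, so the 2 are not separate observations. All 7 increases of the first list count again among the noncoding hosts. Rian also counts again there, and Snhg11 among the protein-coding hosts. Of 31 tested hosts that are not typed as protein-coding, 14 rose (45.2%, against 10.1% of tested lncRNA genes) and 2 fell (6.45%, against 24.7%), with a median log2 fold change of 0.66. The increases numbered 8 without replicate 1 at 48 h and 9 without replicate 1 at 0 h or replicate 2 at 48 h, and the decreases 0 to 2 with 1 library left out. AI506816 rose from 15.4 ± 0.284 to 76.1 ± 9.52 CPM (2.30, adjusted p = 2.74e-07), 9330159M07Rik rose by 1.51 (adjusted p = 0.000223), and Rian, the imprinted partner of Meg3, fell by 0.73 (adjusted p = 0.0305). Cct6a, a chaperonin subunit that this release does not type as protein-coding, rose by 0.49 (adjusted p = 0.00734). Of 212 tested hosts that are protein-coding, 91 rose (42.9%, against 25.3% of tested protein-coding genes) and 18 fell (8.49%, against 18.8%), with a median of 0.30. The largest increase among them was Top2a, the DNA topoisomerase of dividing cells, from 1.45 ± 0.517 to 107 ± 15.7 CPM (6.19, adjusted p = 4.31e-08), followed by Cep55 (5.32, adjusted p = 2.01e-06) and Ncapd2 (3.97, adjusted p = 3.44e-08), which also act in cell division. Among called genes of this list with a mean of at least 1 CPM, the largest decreases after Snhg11 were those of Dirc2, which fell by 1.17 (adjusted p = 2.86e-05), and Ptprb, one of the endothelial markers given above, which fell by 0.93 (adjusted p = 0.00177). Eef2, a translation elongation factor, and Hspa8, a chaperone, had the highest mean CPM, with log2 fold changes of 0.17 (adjusted p = 0.455) and 0.30 (adjusted p = 0.202).

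Genes for proteins that bind or assemble with snoRNAs (snoRNP genes) were listed next. Of 18, all tested, 11 rose, 0 fell and 7 were not called, with a median log2 fold change of 0.59. The 11 are 61.1% of the list, beside 21.4% of all tested genes called higher, and the 0 decreases stand beside 19.3% called lower. These genes and the ribosomal protein, paraspeckle, speckle and decay genes below are protein-coding. Of tested protein-coding genes, 25.3% were called higher and 18.8% lower. Nop58, a core protein of C/D particles, rose from 9.73 ± 1.05 to 28.2 ± 1.85 CPM (1.53, adjusted p = 5.99e-06), and its partner Nop56 rose by 1.13 (adjusted p = 0.000139). Gar1 and Nhp2, core proteins of H/ACA particles, rose by 1.18 (adjusted p = 0.00236) and 1.14 (adjusted p = 0.000255). Nop10, another H/ACA core protein and among the 2 of the list with the highest mean CPM, had a log2 fold change of -0.18 (adjusted p = 0.402). With 1 library left out, 9 to 11 genes were called higher, and without replicate 2 at 0 h 1 gene was called lower.

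Cytosolic ribosomal protein genes, the other large family with TOP starts, were tested for 76 of 80 genes. Of these, 52 rose (68.4%, against 21.4% of all tested genes) and 0 fell (against 19.3%), with a median log2 fold change of 0.57. The count of increases was 29 without replicate 2 at 48 h, and without replicate 2 at 0 h 1 gene was called lower. Rps19 rose by 0.89 (adjusted p = 0.000180), Rpl41 by 0.88 (adjusted p = 0.00288) and Rpsa from 225 ± 58.7 to 416 ± 65.0 CPM (0.89, adjusted p = 0.00549). Rps2 rose by 0.57 (adjusted p = 0.0362). Many of these genes have near-identical pseudogenes, so their levels are uncertain. Gas5, with a TOP-like run at its second start only, and Snhg12, also with a run, had log2 fold changes of 0.17 and -0.22, below that median. Snhg1, where the run was not found by these letters, was above it at 1.25. These differences were not tested.

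Paraspeckle proteins, the partners of Neat1, were tested for 16 of 17 genes, of which 9 rose (56.2%, against 21.4% of all tested genes) and 1 fell (6.25%, against 19.3%), with a median log2 fold change of 0.43. Nono rose from 78.3 ± 7.04 to 133 ± 10.3 CPM (0.77, adjusted p = 0.000466) and Sfpq, which dimerises with it, from 126 ± 11.2 to 184 ± 7.69 CPM (0.54, adjusted p = 0.00355). Tardbp (0.59, adjusted p = 0.00248), Hnrnph1 (0.57, adjusted p = 0.0121) and Hnrnpk (0.48, adjusted p = 0.00459), all RNA-binding proteins, also rose. Zc3h6 was the gene that fell, by 2.41 (adjusted p = 0.000279), at 0.497 ± 0.0817 CPM at 48 h.

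Of 24 genes for nuclear speckle proteins, which share their compartment with Malat1, all were tested, 7 rose, 2 fell and 15 were not called, with a median log2 fold change of 0.05. The 7 are 29.2% of the list, near the 21.4% of all tested genes, and the 2 are 8.33%, against 19.3%. The increases numbered 4 without replicate 1 or 3 at 0 h and 3 without replicate 2 at 48 h. Rnps1 (0.82, adjusted p = 0.000419), Srsf1 (0.67, adjusted p = 0.000604) and Srsf10 (0.63, adjusted p = 0.00149), which take part in splicing, rose. Srsf5, another splicing factor, fell by 0.92 (adjusted p = 0.000437), and Clk1, a kinase of such factors, fell by 0.83 (adjusted p = 0.000272). Srrm2 and Son, the large proteins at the core of speckles, had log2 fold changes of -0.26 (adjusted p = 0.133) and -0.11 (adjusted p = 0.518).

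Factors of nonsense-mediated decay, the pathway that degrades the spliced hosts, were tested for all 17 genes, of which 4 rose and 1 fell, with a median log2 fold change of 0.19. The 4 are 23.5% of the list, near the 21.4% of all tested genes, and the 1 is 5.88%, against 19.3%. The increases were 2 without replicate 2 at 48 h and 8 with library sizes alone, and the decreases 0 to 2 with 1 library left out. Upf1, the central helicase, rose by 0.41 (adjusted p = 0.0171), and Magoh and Eif4a3 of the exon junction complex rose by 0.50 (adjusted p = 0.0218) and 0.47 (adjusted p = 0.00771). Smg6, the endonuclease, fell by 0.31 (adjusted p = 0.0193), and Smg1, the kinase of Upf1, had a log2 fold change of 0.02 (adjusted p = 0.921). Among 10 other tested lncRNAs of known function, 1 rose (10.0%) and 3 fell (30.0%), near the 10.1% and 24.7% of all tested lncRNA genes, with a median of -0.13. Of these counts, the decreases were 1 without replicate 1 at 48 h and with library sizes alone, and the increases 2 without replicate 1 at 0 h and with library sizes alone. Airn, which silences the Igf2r domain in cis, rose from 2.10 ± 0.368 to 5.15 ± 0.750 CPM (1.29, adjusted p = 0.000687). Firre, a nuclear RNA of the X chromosome, fell by 1.24 (adjusted p = 1.28e-05), Jpx by 0.77 (adjusted p = 0.0173) and 2900097C17Rik by 0.35 (adjusted p = 0.0155), and Tug1 had a log2 fold change of -0.10 (adjusted p = 0.574).

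**Figure D5:**
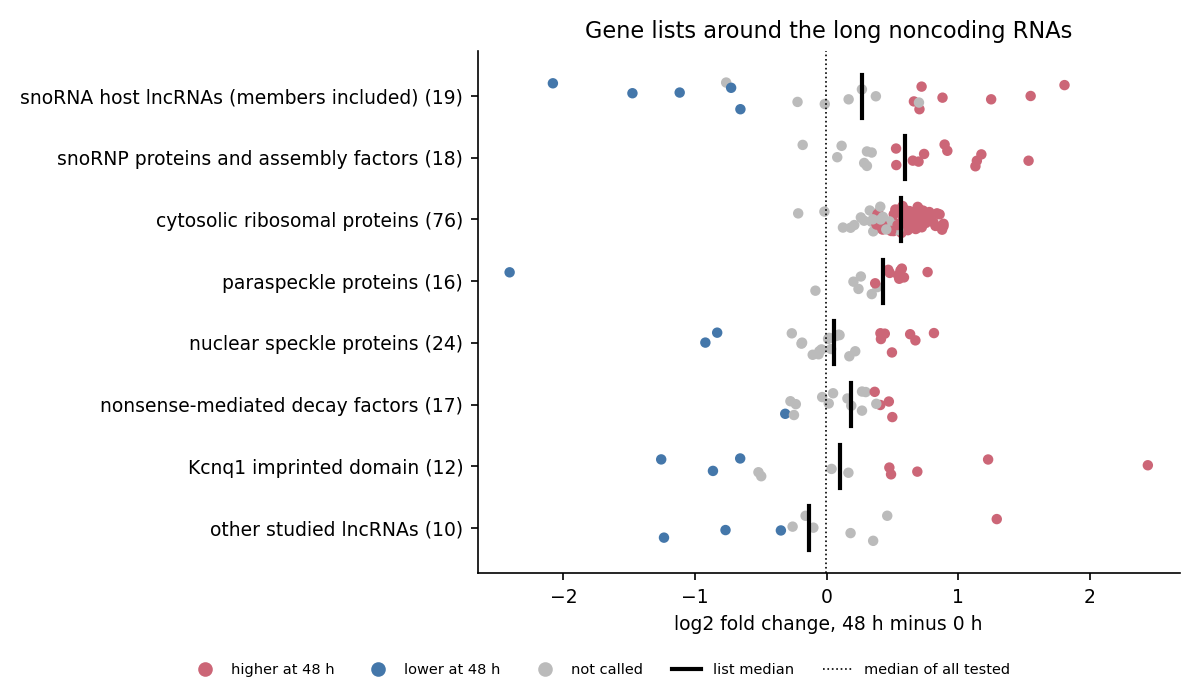
Log2 fold change, 48 h minus 0 h (horizontal axis), of each tested gene in 8 lists, with the number tested in brackets. Colours give the call, the thick bar is the list's median and the dotted line the median of all tested genes. The snoRNP and ribosomal protein lists have medians of 0.59 and 0.57 and no gene called lower, while the snoRNA host lncRNAs reach from -2.08 to 1.81.

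Genes most like each member over the 6 libraries were taken as those with the smallest root mean square difference of log2 CPM, after centring each gene, among the 7560 genes whose mean reached 10 CPM. For Snhg1 these were Cbfb (difference 0.0919) and Nop56 (0.0950), for Kcnq1ot1 Hnrnph1 (0.0775) and Zfp324 (0.0785), and for Malat1 the noncoding genes A930004J17Rik (0.0848) and Gm15764 (0.0897). Gas5 was nearest to Cspp1 (0.0503) and Dync2h1 (0.0529), and Snhg12 to Zscan26 (0.0466) and Spopl (0.0468). Neat1 had no close match, with Gm45792 (0.271) and Gm13449 (0.301) nearest. The measure is over 6 libraries that share their depth and scaling factors, and it is a description only.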

How the data were processed

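The deposited values are raw read counts per gene, 1 file per library, which the authors made without normalization. The submitters' processing notes name FastQC 0.11.5, Trim Galore 0.6.4, STAR 2.6, HTSeq 0.12.4 and DESeq2 with the mm10 build. The strand setting and library selection are not given in the sources used here. Gene names, exons and biotypes came from GENCODE M21, which matched all 55450 identifiers.

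The quasi-likelihood test of edgeR 4.0.16 (R 4.3.3, TMM factors, no term but time) was run on 17037 genes that had 10 or more counts in 3 or more of the 6 libraries. Benjamini-Hochberg adjustment was over all of them. The standard error is the log2 fold change divided by the root of the F statistic. The study's methods state a general 2-tailed test of means, which was not used on counts. The code was tested on simulated data.

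The members and gene lists were chosen with earlier results of these data known. Named genes are all members and their neighbours and, in each list, the 3 largest called increases and decreases with a mean of at least 1 CPM and the 2 highest by mean CPM. Some genes under this rule are not reported here. A list was described by its counts and median. 9 listed symbols have no match in M21. Alternatives were DESeq2 1.42.0, limma-voom (limma 3.58.1), 4 other scalings, 2 other filters, the replicate number as a block, and leaving out each library. Libraries came from separate preparations. Floors cover counting error only, since reads carry no molecular identifiers. No pair of libraries agreed within sampling noise.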

Additional observations from a re-analysis of the deposited data

How the results depend on the processing

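The log2 fold change of Snhg1 passed the test in all 15 alternatives (1.16 to 1.45), and those of Gas5 (0.05 to 0.37) and Snhg12 (-0.34 to -0.02) in none. Malat1 did not pass with library sizes alone (-0.42, adjusted p = 0.109), where the median log2 fold change of all genes shifted by 0.20 and 71.6% of called genes were higher, against 52.5% with TMM, and 2110 genes were called lower against 3288. Since a change of scale moves every gene nearly alike, the fits cannot tell which scale is right for Malat1. Kcnq1ot1 did not pass with upper quartile factors (0.40) or TMM factors from protein-coding genes (0.43). With 1 library left out, values ranged from -0.12 to 0.52 for Neat1, which reversed without replicate 3 of 0 h (-0.12) or of 48 h (-0.11), from -0.79 to -0.47 for Malat1 and from 0.36 to 0.68 for Kcnq1ot1. The called genes then numbered 2649 to 3395 higher and 2540 to 3166 lower. The log2 ratio of Neat1 to Malat1 between time points was 0.88 and ranged from 0.58 to 1.05.

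Libraries that share a replicate number did not deviate together (correlations over 17037 genes of 0.03, -0.07 and -0.14). With the number as a replicate block, 6121 genes were called against 6926, Malat1 lost its call (-0.59, adjusted p = 0.0548), Kcnq1ot1 kept its own (0.51, adjusted p = 0.0232), and the calls of the other 4 members tested were as in the main test. Snhg3 gave no value in any setting, since it is listed at 0. Levels of Snhg1 and Snhg12 rest on 47 to 160 reads per library, which limits their precision. Of 300 counts of called genes in the 10 lists under the alternatives, 256 were within 1.5 times the main count, and the 44 others were mostly counts of a few genes. Increases numbered 6 to 14 among paraspeckle proteins (9 in the main test), 3 to 10 among nuclear speckle proteins (7), 2 to 8 among decay factors (4), 3 to 8 among snoRNA host lncRNAs (7) and 29 to 72 among ribosomal proteins (52). Decreases among snoRNA host lncRNAs numbered 3 to 6 (5).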
